A study of Mus musculus with 10 samples.

Results

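The genes described here encode 10 paired receptors of myeloid cells, Lair1, Pilra, Cd300a and Cd300lf, which carry inhibitory signals, and Tarm1, Oscar, Pilrb1, Trem1, Trem2 and Trem3, which carry activating ones. They are 10 of the 19938 genes with a probe of their own on the array, and each was represented by 1 probe, so the rule for genes with several probes (keep the one with the highest mean) left no choice to make. The members had been picked with the difference between the treated and control tumors already known. Their values are therefore a description, given with standard errors or confidence intervals and without p-values. Whether each member passed the threshold of a fit over all genes is described too. Nothing is supported by that or by the values. The deposited values are on a log2 scale, so a difference of 1 is a 2-fold change.

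The arrays measured total RNA of whole MC38 tumors. MC38 is a colon carcinoma line from the mouse, here implanted under the skin of C57BL/6 mice. In 5 mice (numbers 50, 58, 183, 189 and 595) the tumor, about 40 mm2 in area, received 50 µg CpG1826 dissolved in PBS (50 µL), and in 5 mice (numbers 26, 29, 482, 592 and 661) it received PBS. CpG1826 is a short synthetic DNA whose CpG dinucleotides are recognised by TLR9, an endosomal DNA receptor of myeloid and B cells. Tumors were taken 6 h later, and since the protocol is worded for the CpG1826 injection only, the same time was taken for the PBS tumors. All mice carried the same implanted line and none was left without an injection. A single line, 1 time and 1 dose limit what the groups model, and the labels used here give no age for the mice.

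Paired receptors are families in which closely related surface proteins give opposite signals. Inhibitory members have tyrosine motifs in the cytoplasmic tail that recruit phosphatases such as SHP-1 (Ptpn6), SHP-2 (Ptpn11) and SHIP-1 (Inpp5d). Activating members have a short tail and a charged residue in the membrane, through which they bind the adaptors DAP12 (Tyrobp) or the Fc receptor gamma chain (Fcer1g), which recruit the kinase SYK. On neutrophils, monocytes and macrophages, the cells that take up CpG DNA and tumor debris, this balance sets how strongly a cell responds to collagen, dying cells, lipids and microbial products.

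Lair1 and Tarm1 showed the largest differences of the 10 genes and lie at opposite ends of 1 stretch of the leukocyte receptor complex on chromosome 7. The 250 bases before the start of each gene are shown for that reason, 5′ to 3′, from RefSeq on GRCm38.p6 (Lair1 at chr7:4063205-4063454 and Tarm1 at chr7:3502625-3502874, both on the minus strand). Capitals mark GGAA on either strand, the core that ETS factors such as the myeloid regulator PU.1 bind.
Lair1: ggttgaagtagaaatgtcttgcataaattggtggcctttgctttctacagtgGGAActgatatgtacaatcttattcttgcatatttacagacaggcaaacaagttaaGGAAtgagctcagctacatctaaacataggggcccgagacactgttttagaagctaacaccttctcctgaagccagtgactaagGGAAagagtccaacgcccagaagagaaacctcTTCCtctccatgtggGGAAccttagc
Tarm1: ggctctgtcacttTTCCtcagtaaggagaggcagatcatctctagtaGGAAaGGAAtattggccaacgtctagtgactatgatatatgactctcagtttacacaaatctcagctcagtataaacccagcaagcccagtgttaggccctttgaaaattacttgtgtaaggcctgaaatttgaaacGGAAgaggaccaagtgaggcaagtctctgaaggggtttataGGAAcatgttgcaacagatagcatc
Each of these stretches held 5 GGAA cores, but 93.4% of all 32851 promoter stretches in the table held at least 1, with a median of 3. Both strands were also searched for GAGGAAGT (letters of a PU.1 site, which contain the GGAA core), an NF-κB motif (GGGA and CC with any 4 bases between them), TGANTCA (AP-1), TTGCNNAA (C/EBP) and an interferon response motif (TTTC and TTTC with any 2 bases between them). Lair1 matched only TTGCNNAA, found in 9.56% of all promoter stretches, and Tarm1 matched none of the 5. The shares of all promoter stretches with the others were 2.44% for the PU.1 letters, 17.6% for NF-κB and 6.75% for AP-1. A match is a run of letters and not a site in use, and no match says only that the letters were not in this stretch. Of the 10 genes, 9 had a promoter entry.

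Pilra and Pilrb1, an inhibitory and an activating receptor encoded side by side, are shown because their upstream sequences are nearly copies of each other (Pilra at chr5:137836279-137836528 and Pilrb1 at chr5:137858050-137858299, GRCm38.p6, minus strand). Capitals mark the longest run of identical bases, 86 in length.
Pilra: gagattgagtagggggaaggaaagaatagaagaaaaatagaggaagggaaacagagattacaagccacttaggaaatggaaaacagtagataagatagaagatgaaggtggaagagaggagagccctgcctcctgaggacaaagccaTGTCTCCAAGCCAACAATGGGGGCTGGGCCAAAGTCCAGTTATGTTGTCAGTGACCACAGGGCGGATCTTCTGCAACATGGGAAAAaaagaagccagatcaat
Pilrb1: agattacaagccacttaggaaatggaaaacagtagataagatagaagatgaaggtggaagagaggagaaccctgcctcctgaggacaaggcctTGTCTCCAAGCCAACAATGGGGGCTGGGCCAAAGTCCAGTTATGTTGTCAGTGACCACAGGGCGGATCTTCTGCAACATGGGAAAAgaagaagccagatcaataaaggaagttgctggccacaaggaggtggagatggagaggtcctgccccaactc
With the stretches shifted by 54 bases, 192 of the 196 overlapping bases were identical (98.0%). Both held the interferon response motif, which 2.98% of all promoter stretches held, and both held TTGCNNAA. Only these upstream stretches were compared, and not the transcripts that the probes read. Where transcripts are close copies, a probe can also read RNA of the neighbour. How far the array separates Pilra, Pilrb1 and Pilrb2 was not tested.

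In CpG1826 tumors 3 of the 6 activating receptors were higher and 2 of the 4 inhibitory receptors were lower, while 5 of the 10 genes did not pass the threshold. These counts come from limma fitted over all genes, with Benjamini-Hochberg adjustment and a threshold of 0.05, under which 4.66% of the 19938 genes passed, 3.56% higher and 1.10% lower. The groups of the same 5 members did not overlap, as was so for 6.78% of all genes (4.35% higher and 2.42% lower). Among those that passed, Tarm1 and Trem1 were higher by at least 1 on the log2 scale, like 0.617% of all genes, and Lair1 lower by at least 1, like 0.0301%. The median log2 fold change (CpG1826 over PBS) was 0.36 over the activating receptors and -0.14 over the inhibitory ones, beside -0.02 over all genes. Since the members were chosen on this difference, nothing is read from these shares. Each array was 1 mouse, and the spread is that between these mice. In RNA of whole tumors, fewer cells of a type and less RNA per cell cannot be told apart.

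**Figure D1:**
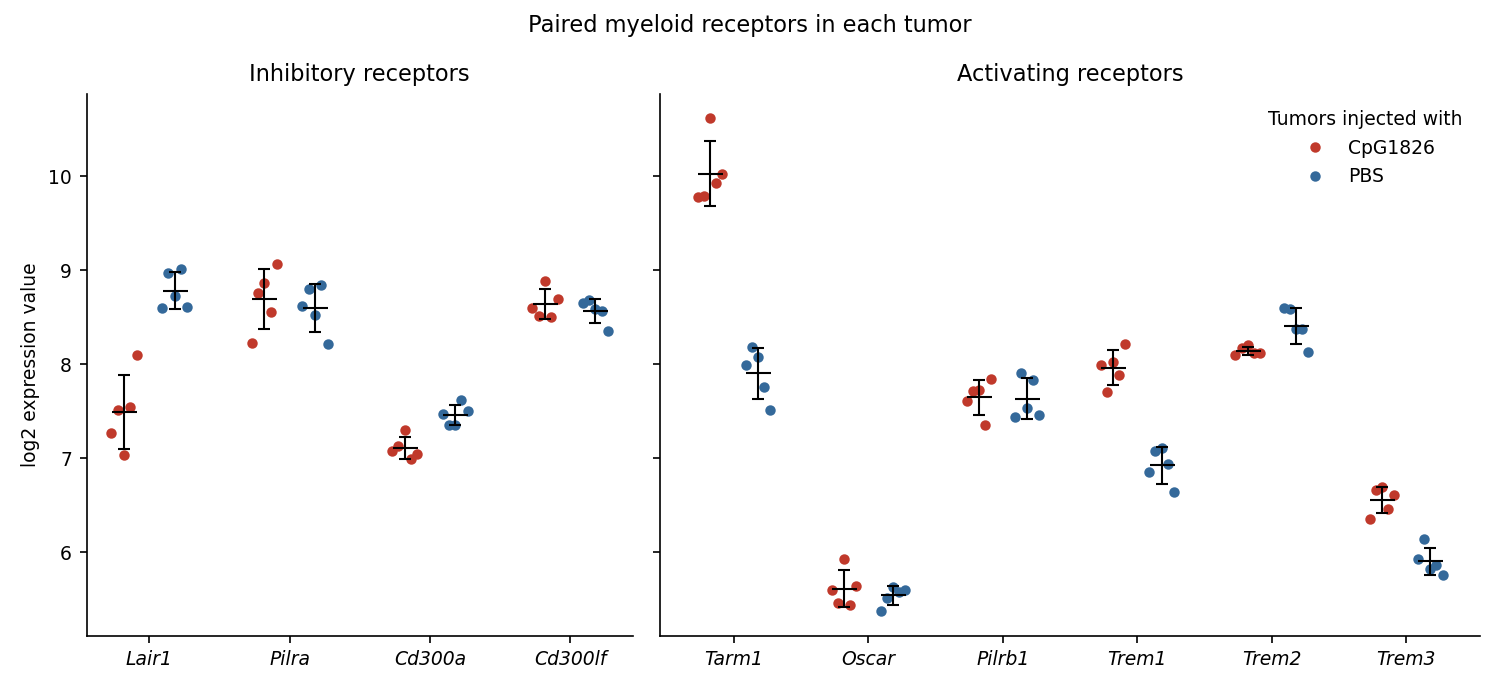
Log2 expression value (vertical axis) of the 4 inhibitory and 6 activating receptor genes. Each point is 1 tumor, red for CpG1826 and blue for PBS, and the black marks give the mean and SD of 5 tumors. Lair1 and Cd300a lie lower and Tarm1, Trem1 and Trem3 higher in CpG1826 tumors with no overlap, and the other 5 genes overlap.

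Lair1 encodes an inhibitory collagen receptor found on most kinds of leukocytes. Its log2 values were 7.27, 7.52, 7.03, 7.54 and 8.10 in CpG1826 tumors 50, 58, 183, 189 and 595, against 8.60, 8.97, 8.73, 9.01 and 8.61 in PBS tumors 26, 29, 482, 592 and 661. Every CpG1826 tumor lay below every PBS tumor, and the gap between the nearest pair was 0.50. The CpG1826 tumors averaged 7.49 ± 0.40 and the PBS tumors 8.78 ± 0.20 (SD, n = 5 each), so that the log2 fold change was -1.29 ± 0.16 (SE), the most negative of all 19938 genes. Tumor 595 was the CpG1826 tumor nearest to the controls, and without it the log2 fold change was -1.44.

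Cd300a encodes an inhibitory receptor for phospholipids exposed on dying cells. Its values were 7.08, 7.13, 7.30, 7.0 and 7.05 in CpG1826 tumors, against 7.48, 7.36, 7.36, 7.62 and 7.51 in PBS tumors, listed by mouse as above. The groups did not overlap, but only 0.05 separated CpG1826 tumor 183 from the lowest PBS tumor. The log2 fold change was -0.35 ± 0.08 (SE), and the gene no longer passed at a threshold of 0.01.

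Pilra and Cd300lf, the other inhibitory receptors, had overlapping groups. PILRα binds sialylated O-glycosylated proteins, and CD300LF, like CD300a, binds lipids of dying cells and in the mouse is also the entry receptor of a norovirus. Pilra was at 8.23, 8.76, 8.86, 8.56 and 9.06 in CpG1826 tumors, against 8.62, 8.80, 8.52, 8.85 and 8.21 in PBS tumors. Both groups ran from about the same lowest value, with CpG1826 tumors 183 and 595 above every PBS tumor, and the log2 fold change was 0.10 ± 0.15 (SE, 95% confidence interval -0.23 to 0.42). Cd300lf was at 8.60, 8.52, 8.88, 8.50 and 8.69 in CpG1826 tumors, against 8.65, 8.68, 8.59, 8.56 and 8.35 in PBS tumors. Its log2 fold change was 0.07 ± 0.09 (SE, 95% confidence interval -0.12 to 0.26).

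Tarm1 encodes an activating receptor of neutrophils and other myeloid cells that signals through the Fc receptor gamma chain. Its values were 9.78, 9.79, 10.62, 9.92 and 10.03 in CpG1826 tumors, against 8.0, 8.18, 8.08, 7.76 and 7.51 in PBS tumors. The lowest CpG1826 tumor exceeded the highest PBS tumor by 1.60, the widest gap among the 10 genes. The means were 10.03 ± 0.35 in CpG1826 tumors and 7.90 ± 0.27 in PBS tumors (SD, n = 5 each), and the log2 fold change of 2.12 ± 0.16 (SE) corresponds to 4.36-fold. It ranked 23 from the top among all 19938 genes, and was 1.98 without CpG1826 tumor 183, the highest one.

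Oscar, the osteoclast-associated receptor, is a neighbour of Tarm1 in the gene order, binds collagen and uses the same gamma chain. It was at 5.59, 5.46, 5.93, 5.44 and 5.64 in CpG1826 tumors, against 5.38, 5.51, 5.64, 5.58 and 5.60 in PBS tumors. The groups overlapped, and the log2 fold change was 0.07 ± 0.09 (SE, 95% confidence interval -0.13 to 0.27). Lair1 passed and Oscar did not, and the difference between them was not tested.

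Pilrb1, the DAP12-coupled partner of Pilra, was at 7.61, 7.72, 7.72, 7.36 and 7.84 in CpG1826 tumors, against 7.44, 7.90, 7.53, 7.84 and 7.46 in PBS tumors. Its log2 fold change of 0.01 ± 0.11 (SE, 95% confidence interval -0.23 to 0.26) was the smallest of the 10 genes. Neither partner of the PILR pair nor Pilrb2 (0.12 ± 0.13) passed.

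Trem1, a DAP12-coupled receptor that amplifies inflammatory responses of neutrophils and monocytes, was at 7.99, 7.71, 8.03, 7.89 and 8.21 in CpG1826 tumors, against 6.85, 7.08, 7.11, 6.94 and 6.64 in PBS tumors. The groups were separated by 0.59, and the log2 fold change was 1.04 ± 0.11 (SE). Trem3, a DAP12-coupled receptor of mouse macrophages that is a pseudogene in humans, was at 6.35, 6.66, 6.69, 6.46 and 6.61 in CpG1826 tumors, against 5.93, 6.14, 5.83, 5.87 and 5.76 in PBS tumors. Its groups were separated by 0.22, with a log2 fold change of 0.65 ± 0.09 (SE).

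Trem2 encodes a receptor for lipids and apolipoproteins on tissue macrophages and microglia. Its values were 8.09, 8.17, 8.20, 8.12 and 8.13 in CpG1826 tumors, against 8.60, 8.59, 8.38, 8.37 and 8.13 in PBS tumors. PBS tumors 26, 29, 482 and 592 lay above every CpG1826 tumor, while PBS tumor 661 lay within the CpG1826 range. The log2 fold change was -0.27 ± 0.09 (SE), which did not pass with all arrays and passed without PBS tumor 661, at -0.34. The SD was 0.04 in CpG1826 tumors and 0.19 in PBS tumors.

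Neighbouring genes were set beside the members to see whether whole clusters differed. From Tarm1 to Lair1 the RefSeq annotation lists 18 protein-coding genes, of which 13 were measured. The 2 that rose were Tarm1 and Pirb, and the 1 that fell was Lair1, where 3.56% of all genes rose and 1.10% fell. The genes between them with other functions, such as Ndufa3 (-0.05), Cnot3 (0.07), Mboat7 (-0.01) and Rps9 (0.05), lay near 0 on the log2 fold change scale, as did Lilra6 (-0.06). Pirb encodes an inhibitory receptor for MHC class I. In the TREM cluster on chromosome 17 all 7 genes were measured, and Trem1 and Trem3, which lie next to each other, were the only ones to pass. Treml4 (-0.07), Treml2 (0.17) and Treml1 (-0.22) did not pass. In the CD300 cluster on chromosome 11, 8 of 12 genes were measured and Cd300a alone passed. Cd300e, an activating receptor of monocytes, had a log2 fold change of 0.70 ± 0.24 (SE) that did not pass (limma adjusted p = 0.152). Pira1, Pira2 and Cd300ld2 to Cd300ld5, which lacked a single-gene probe, were not analysed here. Apart from Pirb, the genes that passed in these clusters were members, chosen with this difference known, so nothing is read from the counts. These neighbours were named for their position after their values were seen.

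**Figure D2:**
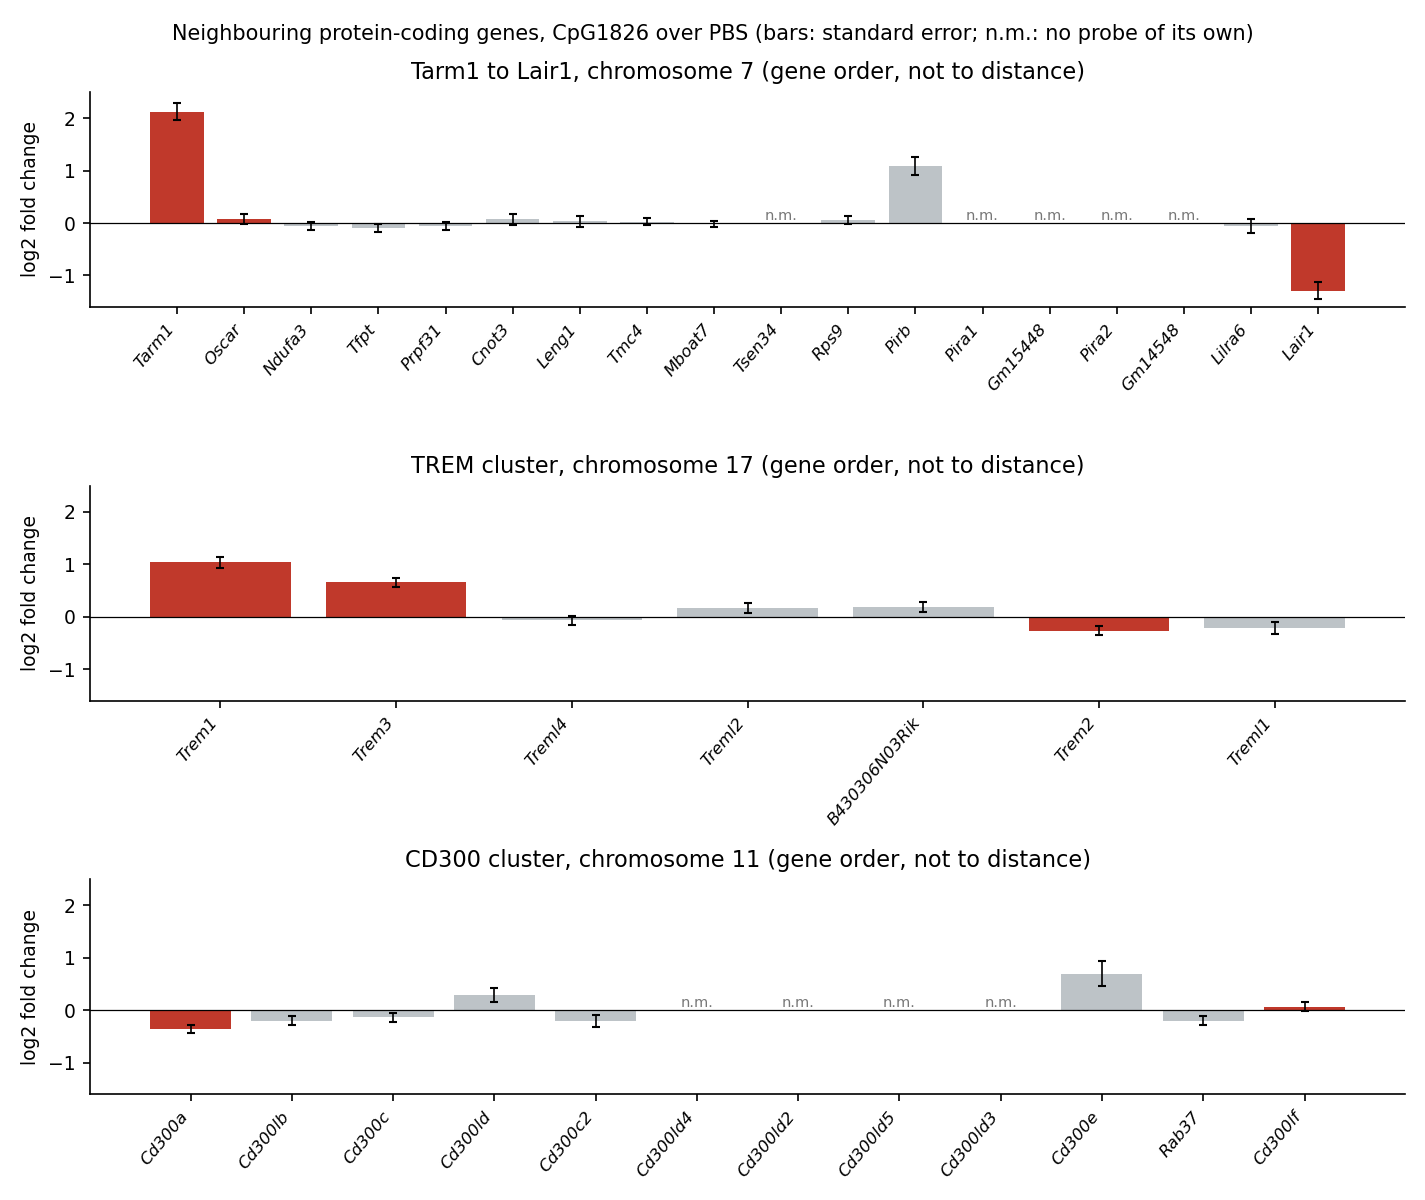
Log2 fold change, CpG1826 over PBS, of protein-coding genes in their order along 3 receptor clusters. Bars are estimates with the standard error, red for the receptors described here and grey for neighbours, and genes marked n.m. had no probe of their own. Tarm1, Pirb and Lair1 stand out in the first cluster and Trem1 with Trem3 in the second.

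Other inhibitory and activating receptors were read in the same arrays. Of 20 other measured inhibitory receptors of leukocytes, 6 rose and 1 fell, with a median log2 fold change of 0.22. Of 22 other activating receptors 5 rose and 0 fell, with a median of 0.02. At an unadjusted p under 0.05 in limma, 10 of these inhibitory receptors were higher and 4 lower, and 7 of the activating ones were higher and 2 lower. Over all genes 3.56% rose, 1.10% fell and the median was -0.02. The lists were drawn up from knowledge of these receptors, with earlier results of these arrays known, and were not tested as sets.

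Among the other inhibitory receptors, Klrb1b, a lectin-like receptor of NK cells, averaged 9.54 ± 0.22 in CpG1826 tumors and 8.37 ± 0.35 in PBS tumors (SD, n = 5 each), a 2.25-fold rise (95% confidence interval 1.78 to 2.83, limma adjusted p = 0.000454). Pirb rose 2.12-fold (1.64 to 2.73, limma adjusted p = 0.00174), and because its activating relatives of the Pira family are close copies, the probe may read several of them. Milr1, an inhibitory receptor of mast cells and other myeloid cells, rose 2.10-fold (1.67 to 2.64, limma adjusted p = 0.000945). Fcgr2b, the inhibitory Fc-gamma receptor, rose by 0.80 on the log2 scale, Cd72, a B cell and macrophage receptor, by 0.58 and Lilrb4a by 0.48. Lilrb4a has a near copy, Lilrb4b, which had no probe of its own. Sirpa, the receptor of the "do not eat me" signal CD47, was the 1 that fell, with means of 10.06 ± 0.16 in CpG1826 tumors and 10.45 ± 0.12 in PBS tumors (SD, n = 5 each; log2 fold change -0.39, limma adjusted p = 0.0235). The Sirpa call was lost without CpG1826 tumor 50, 58 or 189 or PBS tumor 29, 482 or 592 (limma adjusted p between 0.0119 and 0.0705 when 1 mouse at a time was omitted).

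Among the other activating receptors, Clec4e (Mincle) and Clec4d, lectin receptors that signal through the Fc receptor gamma chain, had the largest rises. Clec4e averaged 9.06 ± 0.31 in CpG1826 tumors and 6.39 ± 0.39 in PBS tumors (SD, n = 5 each), a 6.36-fold rise (95% confidence interval 4.85 to 8.34, limma adjusted p = 2.07e-06). Clec4d rose 2.45-fold (1.97 to 3.05, limma adjusted p = 0.000126). The activating Fc-gamma receptors Fcgr4 (0.65), Fcgr3 (0.55) and Fcgr1 (0.40 on the log2 scale) rose with all arrays. All 3 lost their calls without CpG1826 tumor 58, 183 or 595 or PBS tumor 26 or 661, and additionally Fcgr3 without CpG1826 tumor 50, Fcgr4 without PBS tumor 482 and Fcgr1 without PBS tumor 29 or 482. With 1 mouse omitted, limma adjusted p lay between 0.0245 and 0.107 for Fcgr4, 0.0149 and 0.0942 for Fcgr3, and 0.0434 and 0.0982 for Fcgr1. The number of activating receptors that rose was 2 without CpG1826 tumor 58, 183 or 595 or PBS tumor 26 or 661, and 3 without PBS tumor 482.

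**Figure D3:**
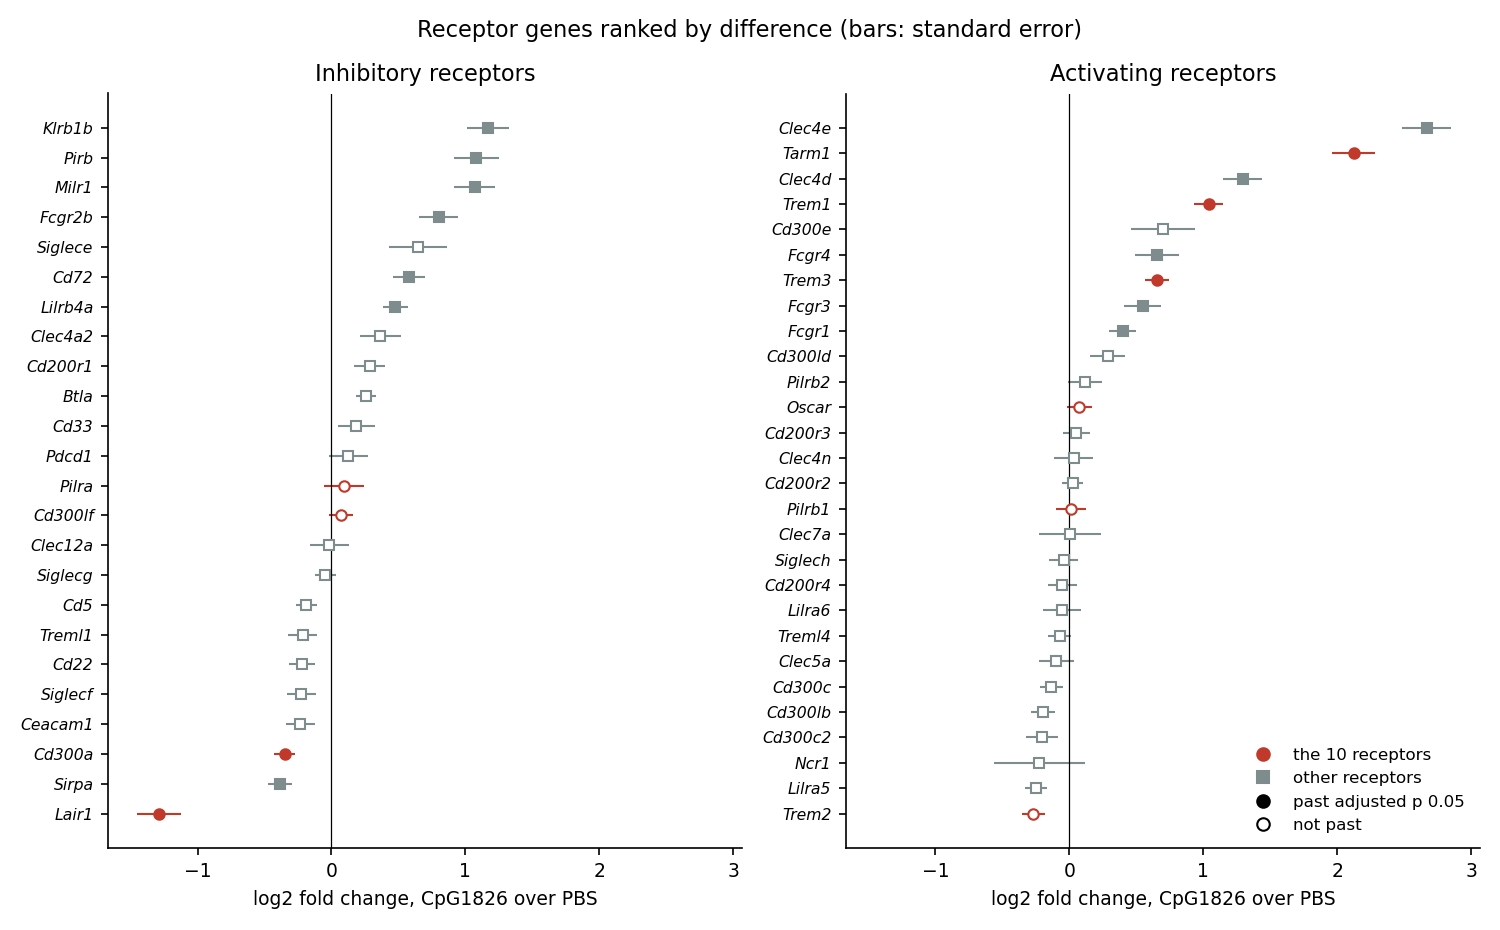
Log2 fold change, CpG1826 over PBS (horizontal axis), with its standard error for inhibitory and activating receptor genes, ranked. Red circles are the 10 receptors and grey squares the 20 other inhibitory and 22 other activating ones, and filled symbols passed a limma adjusted p of 0.05. Filled symbols lie on both sides of 0 among inhibitory receptors and on the right only among activating ones. Those on the left are Lair1 and Cd300a, chosen with this difference known, and Sirpa, whose call was lost in 6 of the fits without 1 mouse. Of the filled grey squares among activating receptors, Fcgr1 lost its call in 7 of those fits and Fcgr3 and Fcgr4 in 6 each. Among the grey squares 6 of 20 inhibitory and 5 of 22 activating receptors rose, beside 3.56% of all genes.

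Adaptors and enzymes that carry the receptors' signals were read next. Of 30 measured adaptors, kinases and phosphatases, 4 rose and 0 fell, with a median log2 fold change of -0.01. Of all genes 3.56% rose and 1.10% fell. Without adjustment, 5 were higher and 5 lower at p under 0.05 in limma. Syk, the kinase used by all activating members through their adaptors, averaged 8.70 ± 0.27 in CpG1826 tumors and 7.84 ± 0.21 in PBS tumors (SD, n = 5 each), a 1.82-fold rise (95% confidence interval 1.49 to 2.21, limma adjusted p = 0.00145). Malt1, which carries the SYK signal to NF-κB, rose 1.97-fold (1.65 to 2.36, limma adjusted p = 0.000246). Fgr, a Src family kinase of myeloid cells, rose by 0.75 on the log2 scale. Vav1, a guanine nucleotide exchange factor, rose by 0.62, a call lost without CpG1826 tumor 58, 183 or 595 or PBS tumor 26, 29, 482 or 661 (limma adjusted p between 0.0165 and 0.0833 with 1 mouse omitted).

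The adaptors themselves did not pass. Tyrobp, the partner of Pilrb1 and the TREM receptors, averaged 9.75 ± 0.18 in CpG1826 tumors and 9.85 ± 0.15 in PBS tumors (SD, n = 5 each; log2 fold change -0.10 ± 0.10 SE, limma adjusted p = 0.697). Fcer1g, the partner of Tarm1 and Oscar, averaged 12.09 ± 0.21 in CpG1826 tumors and 11.76 ± 0.23 in PBS tumors (log2 fold change 0.33 ± 0.12 SE, limma adjusted p = 0.177). Among the phosphatases used by inhibitory receptors, Ptpn6 (0.04) and Ptpn11 (0.06) lay near 0. Inpp5d had a log2 fold change of -0.40 ± 0.11 (SE, limma adjusted p = 0.0717) and passed without CpG1826 tumor 183 (limma adjusted p = 0.0475, the lowest value with 1 mouse omitted, the highest being 0.156).

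Genes of known ligands were also read. Of 18 measured ligands and sheddases 1 rose and 0 fell, with a median log2 fold change of 0.01, while 3.56% of all genes rose and 1.10% fell. Without adjustment, 3 were higher and 1 lower at p under 0.05 in limma. The 1 that rose was Col17a1, a collagen of the epidermal basement membrane and a ligand of LAIR1, with means of 7.11 ± 0.23 in CpG1826 tumors and 6.55 ± 0.15 in PBS tumors (SD, n = 5 each; 1.48-fold, limma adjusted p = 0.00752). Col1a1, the main fibrillar collagen and also a ligand of LAIR1, had a log2 fold change of -0.28 ± 0.11 (SE, limma adjusted p = 0.243). Pglyrp1, a ligand of TREM1 made by neutrophils, was at -0.09 ± 0.13, and Apoe, a ligand of TREM2, at 0.05 ± 0.15 (SE).

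Markers of 11 cell types were read in the same arrays. In the same fit 3.56% of all genes rose and 1.10% fell, to be set beside the counts of each list. Of 14 neutrophil markers 7 rose and 0 fell, among them S100a8 (4.37-fold) and Cxcr2 (3.11-fold). The mean log2 level of the list was 6.14 to 6.48 in CpG1826 tumors and 5.53 to 5.77 in PBS tumors. Tarm1, Trem1 and Trem3 were higher in the same 5 tumors. The neutrophil surface marker Ly6g averaged 4.70 in both groups, and the granule genes Camp (-0.07), Ngp (0.05), Ltf (-0.03), Mpo (0.02) and Elane (-0.03) lay near 0 on the log2 fold change scale. Of 9 monocyte markers 2 fell, Cx3cr1 (2.32-fold lower) and Ccr2 (1.53-fold lower), and 0 rose, in the same tumors in which Lair1 and Cd300a were lower. At an unadjusted p under 0.05 in limma the monocyte list had 3 higher and 2 lower, the 3 being F13a1 (0.64, adjusted p = 0.0545), Plac8 (0.50, adjusted p = 0.109) and Itgam (0.32, adjusted p = 0.0914), and its median log2 fold change was 0.08. That list's mean level was 8.90 to 9.32 in CpG1826 tumors and 8.94 to 9.20 in PBS tumors. Of 14 macrophage markers 2 rose, Cd14 (4.33-fold) and Fcgr1, and Csf1r fell by 0.46 on the log2 scale, while the list's mean level was 9.85 to 10.25 in CpG1826 tumors and 9.68 to 10.06 in PBS tumors. Of 8 markers of all leukocytes, Rac2 rose by 0.69 and Laptm5 fell by 0.36, with mean levels of 9.95 to 10.46 in CpG1826 tumors and 9.78 to 10.22 in PBS tumors. When 1 mouse at a time was omitted, Ccr2 kept its call only without CpG1826 tumor 595 (limma adjusted p between 0.0158 and 0.127), and Laptm5 only without CpG1826 tumor 183 or 595 or PBS tumor 661 (between 0.0296 and 0.114). The neutrophil marker Retnlg lost its call without CpG1826 tumor 183 or PBS tumor 26, 29 or 482 (between 0.0172 and 0.0739). The part of any of these cell types in the receptor differences was not tested.

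The median log2 fold change was 1.20 over skin markers, beside 0.40 over neutrophil markers. Of 16 keratinocyte markers 11 rose and 0 fell, among them Krt1 (8.35-fold) and Krt5 (7.75-fold), with mean levels of 6.72 to 7.32 in CpG1826 tumors and 5.38 to 5.91 in PBS tumors, and Col17a1 was higher in the same tumors. Their part was not tested either. For the remaining lists, 1 of 10 dendritic cell markers rose (Ccr7, 0.75), 1 of 8 mast cell markers rose (Hdc, also in the neutrophil list, 1.61), and 1 of 8 osteoclast markers rose (Ocstamp, 0.50), with 0 lower in each. In limma 0 of 10 T and NK cell markers and 0 of 6 B cell markers passed, and at an unadjusted p under 0.05 the first list had 1 higher and 1 lower and the second 0. Of 10 markers of colon epithelium, Cdh1 (0.63) and Epcam (0.32) rose, and when 1 mouse was omitted Epcam kept its call only without CpG1826 tumor 183 or PBS tumor 26 (limma adjusted p between 0.0283 and 0.126). Ocstamp lost its call without PBS tumor 29 (0.0504). Of the intestinal genes in this list, Cdx1 averaged 7.05 in CpG1826 tumors and 6.98 in PBS tumors, above the array medians of 6.47 to 6.53, and Cdx2 averaged 5.60 in CpG1826 tumors and 5.58 in PBS tumors, below them. Vil1 (4.56 in CpG1826 and 4.68 in PBS tumors), Krt20 (4.35 in CpG1826 and 4.32 in PBS tumors) and Lgals4 (5.16 in CpG1826 and 5.31 in PBS tumors) were also below them. Levels of different probes cannot be compared, so the label could not be judged from these levels.

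**Figure D4:**
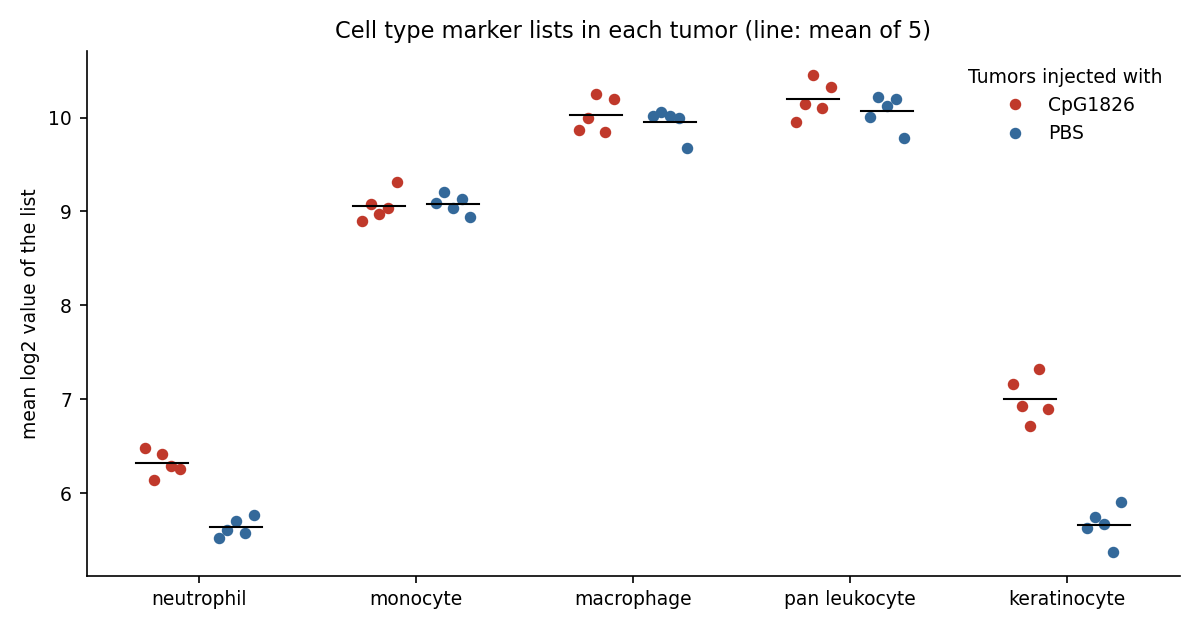
Mean log2 value of 5 cell type marker lists (vertical axis) in each tumor, red for CpG1826 and blue for PBS, with a line at the mean of 5. The neutrophil and keratinocyte lists do not overlap between groups, at 6.14 to 6.48 in CpG1826 against 5.53 to 5.77 in PBS tumors for neutrophils, and the monocyte, macrophage and pan-leukocyte lists overlap.

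The pattern among tumors of 1 group was described as the Pearson correlation of deviations from the group means over the 10 arrays, among 9969 genes at or above the median level. With Lair1 the most alike were Far1 (r = 0.953), Ap1b1 (r = 0.947) and Ranbp2 (r = 0.932), with log2 fold changes between -0.14 and 0.06. With Tarm1 they were Gpr35 (r = 0.949), Prex1 (r = 0.949) and Csf2rb2 (r = 0.945), with log2 fold changes of 0.91, -0.03 and 0.45. With Trem1 they were Tnfaip2 (r = 0.909), Il1rap (r = 0.900) and Itgb7 (r = 0.881), with log2 fold changes of 0.49, 0.08 and -0.07. These are the highest of very many correlations over few arrays, which also share labelling and normalization, and are given without a test.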

How the data were processed

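Total RNA of 10 tumors was labelled with a whole-transcript kit for Affymetrix arrays, per the labels' protocols. The authors deposited 1 log2 value per probe and array, with base 2 inferred from their range (2.03 to 14.70). R 2.7.1 and limma are named with no role, per the submitters' processing notes. For background correction, summarization and normalization the method is not stated in the labels. Array medians lay between 6.47 and 6.53, so a shift shared by most genes could be hidden, and dim probes can have compressed fold changes.

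The platform annotation paired 21789 of 35512 probes with 1 symbol, 1621 with several and 12102 with none. Only single-symbol probes were used, 1 per gene (highest mean), giving 19938 genes, and RefSeq (GRCm38.p6) gave names, gene order and promoters. limma 3.58.1 in R 4.3.3 (lmFit, eBayes, two-sided) compared 5 CpG1826 with 5 PBS arrays, with Benjamini-Hochberg adjustment over all genes. The members and lists were chosen with earlier results of these data known. Named outside the members were up to 6 called genes per context list (at least 2), up to 2 per marker list and 10 preset genes. Further marker and neighbour genes were named with their values in view. Alternatives were other normalizations, filters, priors, weights, probe rules, a stricter threshold and leaving out each mouse. Data were simulated for this comparison with 19938 genes, with normal noise that was independent between genes. There the fit recovered 80 of 100 genes changed by 0.5 and 98 of 100 changed by 1, with 6 false calls among 184. Genes on real arrays vary together, so these counts do not give the error rate of the real comparison. The number of arrays limits the precision.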

Additional observations from a re-analysis of the deposited data

How the results depend on the processing

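Leaving out each mouse kept 3 members higher and 2 to 3 lower, the third being Trem2 without PBS tumor 661. The median log2 fold change lay between -0.19 and -0.11 for inhibitory and between 0.31 and 0.40 for activating members. In those fits 6 other inhibitory receptors were higher and 0 to 1 lower, 2 to 5 other activating receptors and 3 to 4 adaptors and signal enzymes were higher, 0 to 2 adaptors and signal enzymes were lower, and 1 to 2 ligands were higher. At an adjusted p under 0.01, 1 member was lower (Lair1), with 0 other inhibitory receptors lower and 2 other activating receptors higher. The adaptors and signal enzymes that were lower numbered 3 after a further quantile normalization, 3 with genes below the median level left out and 3 with a trended, robust prior (Inpp5d, Lat2 and Plcg2 each time), and 2 with array weights. With that prior 2 ligands were higher. With genes below the median level left out, Oscar and Trem3 were not tested, and the activating median was 0.53 over the remaining 4 genes, from the construction of that setting. The causes of the other changes were not tested. No member that passed changed sign under any alternative run. No paired analysis was possible because the groups share no mouse numbers. Probe background was not used, so a low level is not called absent.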

Other observations

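Within the groups, the members of the 10 receptors did not all vary together from tumor to tumor. Of the 45 pairs, Cd300lf and Tarm1 had the highest correlation of deviations from the group means over the 10 arrays (r = 0.915), although Tarm1 differed between groups by 2.12 on the log2 scale and Cd300lf by 0.07. CpG1826 tumor 183 was the highest of its group for both genes, and PBS tumor 661 the lowest of its group for both. The same was so for the mean level of the markers of all leukocytes, at 10.46 in tumor 183 and 9.78 in tumor 661. It was also so for the macrophage list but not for the neutrophil list, and a part of these levels in the correlation was not tested. The next highest pair was Pilra and Trem3 (r = 0.784), and Lair1 and Cd300a, both lower in CpG1826 tumors, had the most negative value (r = -0.401). The pairs were picked after their values were seen, few arrays stand behind each value, and no test was made.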
